A study of Mus musculus with 24 samples.

Results

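Sirtuins are the 7 NAD-dependent protein deacylases of the mouse, Sirt1 to Sirt7. They were taken from the array by gene name: 7 of the 27961 named genes, with 11 of the 41174 probes, carried a member's symbol, and all 11 probes were well above background on all 24 arrays. The arrays measured messenger RNA in immortalized mouse embryonic fibroblasts labeled as lacking Ku70 (genotype Ku70-/-, gene Xrcc6), a protein that joins broken DNA ends. By the labels every group, controls included, carries this deletion, and the cells come from a single line, so no comparison with Ku70-proficient cells is possible here.

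The arrays form 2 sets of the same 1-color design that were read with different software versions. The first set has 15 arrays in 5 groups of 3. One group was untreated. In the others the cells received 20 mM potassium bromate (KBrO3, an oxidizing agent that damages DNA bases) over 1 hr, either alone or together with 150 μM bisphenol A (BPA, a monomer of plastics), and RNA was taken at 4 hr or 24 hr. In co-exposure, BPA was present before, during and after the KBrO3 hour. The second set has 9 arrays, with 3 untreated controls and 3 arrays each labeled as 4 hr and 24 hr of 150 μM BPA alone. The study's methods give each exposure to BPA alone as 1 hr longer than these labels, and the label times are used here as names. No control is labeled as having received a solvent. The labels place the untreated arrays of the first set at 4 hr and give no time for those of the second, so 24-hr values are compared with controls that are not labeled as 24-hr samples. In what follows, a normalized log2 signal is the log2 of a probe's processed signal minus the 75th percentile of its array, and a gene is called changed at a Benjamini-Hochberg adjusted p under 0.05 in limma over all probes tested in its set. Each group has 3 arrays of separate biological replicates. Signals of different probes depend on the probe as well as on the transcript, so the genes are not ranked by level.

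Each sirtuin removes acyl groups from lysines of other proteins and consumes NAD in doing so, which ties its activity to the metabolic and oxidative state of the cell. Sirt1, Sirt6 and Sirt7 act mainly in the nucleus on histones, transcription factors and DNA repair proteins, Sirt2 acts mainly in the cytosol on tubulin among others, and Sirt3, Sirt4 and Sirt5 lie in mitochondria. Sirt3 is the main mitochondrial deacetylase, Sirt4 restrains glutamate dehydrogenase, and Sirt5 removes succinyl, malonyl and glutaryl groups. In fibroblasts the nuclear members are known for roles at DNA breaks and in the oxidative stress response.

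The probes decide which part of a transcript was read. Sirt1, Sirt2 and Sirt7 have more than 1 probe, and these are shown because the probes of a gene did not always give the same result. The first line of each gene is its representative probe, the brightest over all arrays; 30 of the 60 bases are printed 5′ to 3′, with bases shared with another probe of the gene in capitals.
Sirt1 A_52_P358612: actaatggctttcattcctgtgaaagtgat
Sirt1 A_51_P141152: aaactagggatcaattttctcaactgcaga
Sirt2 A_52_P547447: aacagtgccaGAATAAGGCATTTCTCTATT
Sirt2 A_51_P110068: GAATAAGGCATTTCTCTATTGTTttgaggg
Sirt2 A_52_P656024: cacggctgctcattaacaaggaaaagacag
Sirt7 A_51_P352264: GTACAAGTGTTCACTTTATAGAAGCCTTTT
Sirt7 A_52_P138727: tccttatcacGTACAAGTGTTCACTTTATA

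In the array annotation of the first set, whose header names the mm7 build, the Sirt1 probes lie at chr10:62855795-62855854 and chr10:62838289-62838348 on the minus strand, 17506 bases apart. The Sirt7 probes at chr11:120727467-120727526 and chr11:120727487-120727546 on the minus strand share 40 bases, so they are not independent readings. For Sirt2 the representative probe at chr7:25722588-25722647 shares 23 bases with A_51_P110068, whereas A_52_P656024 is listed over the 1626 bases of chr7:25720214-25721839, a span longer than the probe itself. The single probes of Sirt3, Sirt4 and Sirt5 lie at chr7:137280969-137281028, chr5:114698987-114699046 and chr13:42835248-42835307, the first pair on the minus strand. Only 15 bases, chr10:81417014-81417028, are listed for the Sirt6 probe. An annotation of exons and untranslated regions in this build was not used here.

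At 4 hr of KBrO3 alone, the sirtuins split by compartment only in part. Sirt1 and Sirt7 rose, by 2.80-fold and 2.16-fold, and Sirt2, Sirt3, Sirt4, Sirt5 and Sirt6 fell, the mitochondrial members Sirt4 and Sirt5 by 3.81-fold and 3.53-fold. All 7 were called, 2 higher and 5 lower, and in all 7 the treated and untreated arrays did not overlap. Of all 18444 genes tested in this set, 71.1% were called in this comparison, 34.5% higher and 36.6% lower, and 78.9% did not overlap. The median absolute log2 difference was 1.11 over the 7 sirtuins and 0.56 over all genes tested. At 24 hr it was 0.37 against 0.43 with KBrO3 alone and 0.42 against 0.49 in co-exposure, below that of all genes.

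Sirt1, the nuclear deacetylase best known for acting on p53 and FOXO proteins, read 0.45, 0.45 and 0.59 (normalized log2 signal) on the 3 untreated arrays of the first set. After KBrO3 alone it read 2.00, 2.02 and 1.93 at 4 hr and 0.97, 0.91 and 1.01 at 24 hr. All treated arrays lay above all untreated arrays, and the 24-hr arrays lay between the other groups. The log2 difference from untreated was 1.49 at 4 hr (95% confidence interval 1.36 to 1.61, adjusted p = 1.5e-10) and 0.47 at 24 hr (0.35 to 0.59, adjusted p = 1.1e-05). Its other probe, 17506 bases away on the chromosome, gave 1.69 and 0.68.

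Sirt7, a nucleolar deacetylase of histone H3 that is linked to ribosomal RNA transcription, read 2.74, 2.64 and 2.75 on the untreated arrays. At 4 hr after KBrO3 alone it read 3.78, 3.87 and 3.82, and at 24 hr 3.05, 3.09 and 3.10. The order of the groups was that of Sirt1, again with no overlap. The log2 differences were 1.11 at 4 hr (0.98 to 1.25, adjusted p = 6.0e-09) and 0.37 at 24 hr (0.23 to 0.51, adjusted p = 0.00021), and the overlapping second probe gave 1.12 and 0.65.

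Sirt6, the third nuclear member, a histone deacetylase that is recruited to DNA breaks and supports base excision repair, did not follow the other nuclear members. Its dim probe read −3.26, −3.28 and −3.20 on untreated arrays, −3.63, −3.72 and −3.67 at 4 hr and −3.03, −3.19 and −3.01 at 24 hr. At 4 hr every treated array was below every untreated one, with a log2 difference of −0.43 (−0.67 to −0.18, adjusted p = 0.0040). At 24 hr the arrays lay above the untreated ones, but the difference of 0.17 (−0.07 to 0.41) was not called (adjusted p = 0.19). This value depends on the processing: it was called higher with median scaling (0.32) or quantile normalization (0.31) and lower with normexp background correction (−0.96).

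Sirt2, the tubulin deacetylase of the cytosol, showed small changes. Untreated arrays read 1.26, 1.28 and 1.39, KBrO3 arrays 1.00, 1.00 and 1.02 at 4 hr and 1.15, 1.13 and 1.17 at 24 hr. The representative probe was lower on every treated array, by −0.31 (−0.42 to −0.19, adjusted p = 0.00019) and −0.16 (−0.27 to −0.04, adjusted p = 0.018). The overlapping probe gave −0.32 and −0.21. The upstream probe A_52_P656024 read −0.11, −0.25 and 0.07 untreated and −0.14, −0.17 and −0.13 at 4 hr, which overlap, and its differences of −0.05 and −0.12 were not called (adjusted p = 0.66 and 0.31). The fall of Sirt2 after KBrO3 alone thus rests on the pair of overlapping probes. The 4-hr call was lost with normexp (−0.13, adjusted p = 0.33) and with all 24 arrays in 1 fit (adjusted p = 0.067), and the 24-hr call was also lost without untreated replicate 3, without KBrO3 24-hr replicate 2 and with median scaling, and with normexp the difference was 0.042.

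Among the mitochondrial members, Sirt3 read 2.74, 2.80 and 2.73 untreated, 1.75, 1.82 and 1.76 at 4 hr and 2.23, 2.26 and 2.28 at 24 hr after KBrO3 alone. Sirt4 read 1.70, 1.64 and 1.26 untreated, −0.41, −0.44 and −0.35 at 4 hr and 1.22, 1.27 and 1.30 at 24 hr. Sirt5 read 0.74, 0.67 and 0.52 untreated, −1.20, −1.14 and −1.19 at 4 hr and −0.59, −0.56 and −0.55 at 24 hr. All 3 genes were at their lowest at 4 hr, and at 24 hr Sirt3 and Sirt5 were still below every untreated array while Sirt4 overlapped them.

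For Sirt3 the log2 difference was −0.98 at 4 hr (−1.08 to −0.88, adjusted p = 9.5e-10) and −0.50 at 24 hr (adjusted p = 9.8e-07), and with normexp the latter was −0.18 and not called (adjusted p = 0.26). For Sirt4 it was −1.93 at 4 hr (−2.16 to −1.70, adjusted p = 5.2e-09). Its −0.27 at 24 hr was called only narrowly (−0.50 to −0.03, adjusted p = 0.043), and the call was lost when any of 5 single arrays was left out (untreated replicate 1 or 2, or any KBrO3 24-hr replicate). It was −0.12 with median scaling and −0.059 with normexp, and the call was also lost with quantile normalization, no filter on dim probes, only the 6 arrays compared and all 24 arrays in 1 fit. For Sirt5 the differences were −1.82 (−1.96 to −1.67, adjusted p = 1.2e-10) and −1.21 (adjusted p = 1.1e-08), so Sirt5 was 2.32-fold below untreated at 24 hr. Untreated replicate 3, the low array of Sirt4 and Sirt5, is the only control on the slide that holds the KBrO3 4-hr arrays, and against it alone the 4-hr differences were −1.66 and −1.69, against 1.39 for Sirt1 and 1.08 for Sirt7.

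At 24 hr after KBrO3 alone, 6 of 7 sirtuins were called, Sirt1 and Sirt7 higher and Sirt2, Sirt3, Sirt4 and Sirt5 lower, where 66.3% of all genes were called, 29.7% higher and 36.7% lower. Treated and untreated arrays overlapped for Sirt4 only among the 7, and did not overlap for 69.9% of all genes. The study's methods name cutoffs of Bonferroni p under 0.01 and over 1.5-fold, there on an error-weighted analysis of variance. With these cutoffs on the limma p-values, 5 of 7 passed at 4 hr and 1, Sirt5, at 24 hr. The shares of all genes that passed were 29.3% and 17.8%.

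**Figure D1:**
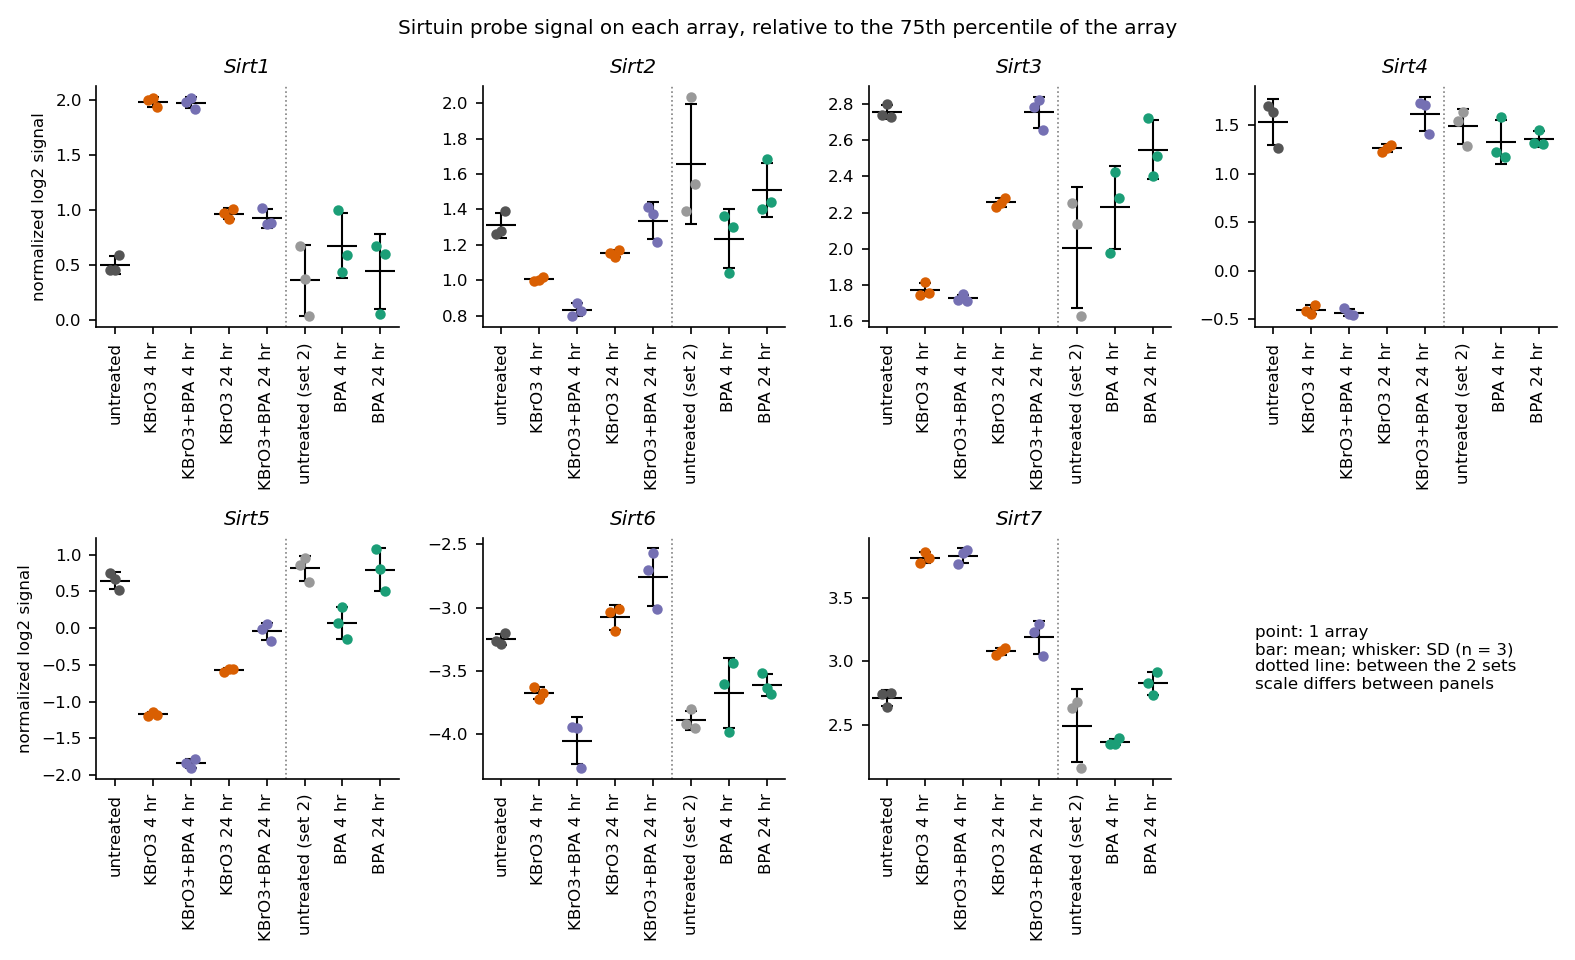
Normalized log2 signal (y axis, log2 relative to the 75th percentile of the array) of the representative probe of each sirtuin, with 1 point per array, the mean and the SD of 3 arrays per group, and a separate y scale in each panel. Within the first set Sirt1 and Sirt7 stand highest on the 4-hr arrays with KBrO3 and Sirt3, Sirt4 and Sirt5 stand lowest there, and the 9 arrays of the second set (right of the dotted line) overlap more.

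In co-exposure Sirt1 and Sirt7 were again higher at 4 hr and the other 5 sirtuins lower, and at 24 hr fewer members differed from untreated cells on the scale used here. All 7 sirtuins were called at 4 hr, 2 higher and 5 lower, and none overlapped the untreated arrays. Of all genes 78.7% were called, 40.4% higher and 38.3% lower, and 84.2% did not overlap. By the cutoffs of the study's methods, applied to limma p-values, 5 sirtuins and 33.3% of all genes passed. Sirt1 read 1.98, 2.02 and 1.92 and Sirt7 3.77, 3.86 and 3.88, which are 2.78-fold and 2.18-fold above untreated. Sirt5 read −1.84, −1.90 and −1.78, a fall of 5.60-fold and the largest among the 7 (log2 difference −2.49, −2.63 to −2.34, adjusted p = 6.8e-12). Sirt4 read −0.38, −0.45 and −0.46 (log2 difference −1.96, adjusted p = 3.8e-09) and Sirt3 1.72, 1.75 and 1.71 (−1.03, adjusted p = 5.2e-10). The smaller falls were those of Sirt6, at −3.94, −3.95 and −4.26 (−0.80, adjusted p = 2.5e-05), and of Sirt2, at 0.80, 0.87 and 0.83 (−0.48, adjusted p = 3.3e-06). Here all 3 Sirt2 probes were called lower.

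At 24 hr of co-exposure 4 of 7 were called, 3 higher and 1 lower, and these 4 did not overlap the untreated arrays. Of all genes 70.2% were called, 31.5% higher and 38.8% lower, and 71.5% did not overlap. By the cutoffs of the study's methods, applied to limma p-values, 1 sirtuin, Sirt5, and 21.5% of all genes passed. Sirt1 read 1.02, 0.87 and 0.88 (log2 difference from untreated 0.42, adjusted p = 2.2e-05) and Sirt7 read 3.23, 3.30 and 3.04 (0.48, adjusted p = 2.1e-05), both above every untreated array. Sirt6 read −2.70, −2.57 and −3.01, also above every untreated array (0.49, adjusted p = 0.0017); with normexp background correction this difference was −0.62. Sirt5, at −0.01, 0.05 and −0.17, was the member that remained lower (−0.69, −0.83 to −0.54, adjusted p = 1.4e-06).

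The other 3 overlapped the untreated arrays at 24 hr of co-exposure. Sirt3 read 2.78, 2.82 and 2.66, with a 95% confidence interval of −0.10 to 0.10 for the log2 difference. Sirt2 read 1.42, 1.37 and 1.22 (interval −0.09 to 0.14) and Sirt4 1.72, 1.71 and 1.41 (−0.15 to 0.32). These statements hold on the scale of the 75th percentile. Scaling arrays to their median instead raises the median of all genes in this comparison by 0.32 on the log2 scale, and on that scale Sirt2, Sirt3 and Sirt4 were called higher, so that 7 of 7 were called. The same change of scale moves the 24-hr comparison of KBrO3 alone by 0.15, the 4-hr co-exposure by −0.14, the difference between co-exposure and KBrO3 alone by −0.14 at 4 hr and 0.17 at 24 hr, and BPA alone at 24 hr by 0.11.

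**Figure D2:**
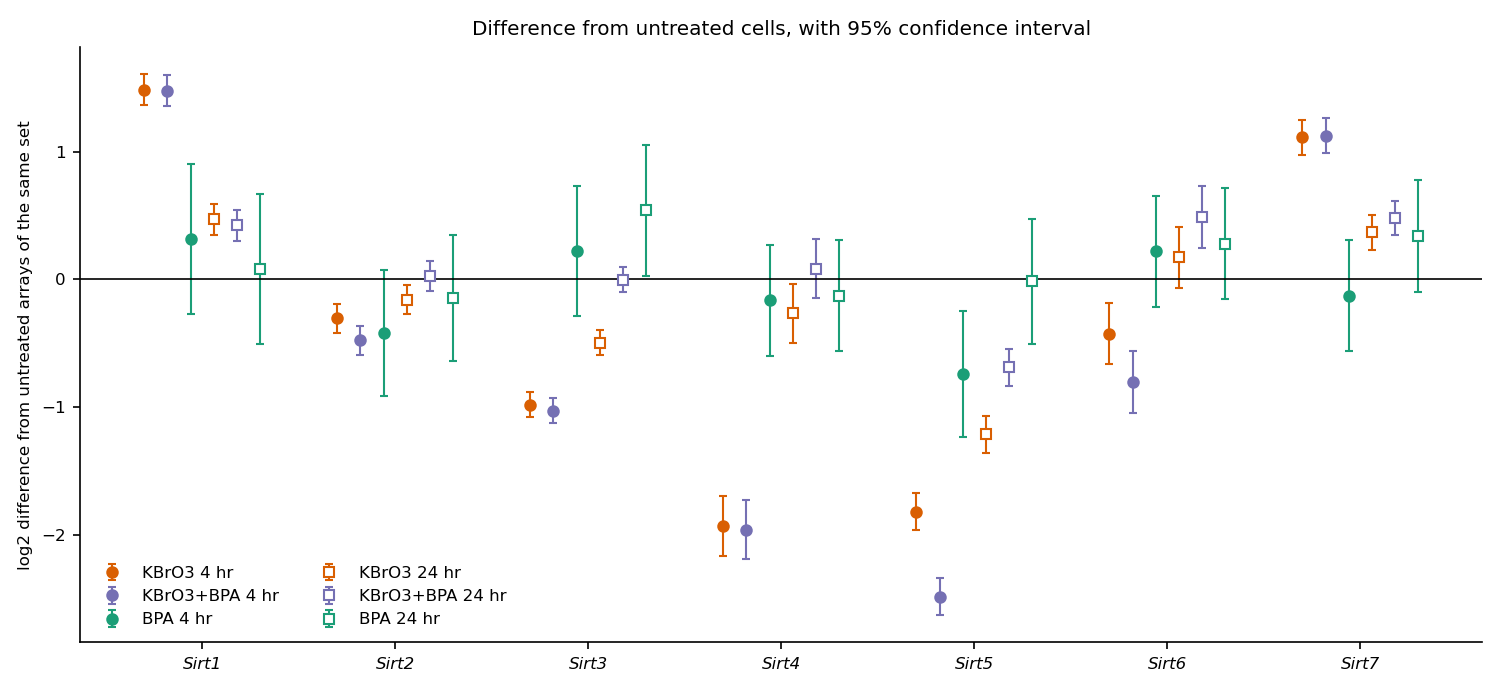
Log2 difference of each sirtuin from the untreated arrays of its own set (y axis), with the 95% confidence interval from limma, for KBrO3 (orange), co-exposure (purple) and BPA alone (green) at 4 hr (filled circles) and 24 hr (open squares). Sirt5 falls to −2.49 in the 4-hr co-exposure, and the intervals of BPA alone are the widest.

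In both KBrO3 treatments, Sirt1 and Sirt7 were lower at 24 hr than at 4 hr and the other 5 sirtuins were higher. With KBrO3 alone all 7 were called in the 24-hr minus 4-hr comparison, as were 75.6% of all genes. The largest return was that of Sirt4 (1.66 on the log2 scale, adjusted p = 2.4e-08), followed by the decline of Sirt1 (−1.02, adjusted p = 5.7e-09) and that of Sirt7 (−0.74, adjusted p = 3.1e-07). In co-exposure all 7 were called too (82.6% of all genes), led by Sirt4 (2.04, adjusted p = 3.0e-09) and Sirt5 (1.80, adjusted p = 1.4e-10). Median scaling shifts all genes by 0.46 in this comparison, and on that scale Sirt1 gave −0.59 in place of −1.05, Sirt2 0.96 in place of 0.50 and Sirt7 −0.19 in place of −0.65, the last not called (adjusted p = 0.099). With normexp the change of Sirt6 was 0.011 with KBrO3 alone (adjusted p = 0.98) and 0.54 in co-exposure (adjusted p = 0.24), against 0.60 and 1.29 with the main setting, and the Sirt2 change with KBrO3 alone was not called. With BPA alone 0 were called between the times (3.98% of all genes), and 2 passed at an unadjusted p under 0.05.

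The question of what BPA adds to KBrO3 is answered by the difference between co-exposed cells and cells given KBrO3 alone. At 4 hr, 3 sirtuins were lower with BPA, Sirt5 by −0.67 (−0.81 to −0.52, adjusted p = 6.9e-06), Sirt6 by −0.38 (−0.62 to −0.14, adjusted p = 0.011) and Sirt2 by −0.17 (−0.29 to −0.06, adjusted p = 0.014), and none was higher. Of all genes 59.1% were called in this comparison, 30.3% lower. For these 3 the co-exposed arrays lay below all arrays with KBrO3 alone, and groups did not overlap for 76.4% of all genes. The Sirt2 call was lost without co-exposed 4-hr replicate 1 and the Sirt6 call without co-exposed 4-hr replicate 3. With normexp both calls were lost, at −0.19 for Sirt6 (adjusted p = 0.90) and −0.17 for Sirt2 (adjusted p = 0.46), and the Sirt2 call was lost with all 24 arrays in 1 fit (adjusted p = 0.39).

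For Sirt1, Sirt3, Sirt4 and Sirt7 the representative probes gave 4-hr differences whose 95% confidence intervals spanned 0: −0.13 to 0.11, −0.14 to 0.05, −0.26 to 0.20 and −0.12 to 0.15. The second probes of Sirt1 and Sirt7 did not repeat this. For Sirt1, A_51_P141152 read 0.84, 0.90 and 0.92 with KBrO3 alone and 1.23, 1.06 and 1.31 with BPA (log2 difference 0.31, adjusted p = 0.025). For Sirt7, A_52_P138727 read 3.14, 3.16 and 3.12 and then 3.39, 3.46 and 3.45 (0.30, adjusted p = 9.1e-05). On these probes the co-exposed arrays were all higher, although the Sirt7 probes share 40 bases. The Sirt2 probes differed as well, with −0.04 for A_51_P110068 (adjusted p = 0.39) and −0.39 for A_52_P656024 (adjusted p = 0.0058).

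At 24 hr the sign was the opposite. Sirt2, Sirt3, Sirt4, Sirt5 and Sirt6, that is, all members other than Sirt1 and Sirt7, were higher with BPA than with KBrO3 alone, and none was lower; 47.6% of all genes were called, 24.9% higher. The log2 differences were 0.53 for Sirt5 (0.38 to 0.67, adjusted p = 4.4e-05), 0.50 for Sirt3 (0.40 to 0.59, adjusted p = 2.9e-06), 0.35 for Sirt4 (adjusted p = 0.017), 0.32 for Sirt6 (adjusted p = 0.033) and 0.18 for Sirt2 (adjusted p = 0.012). The arrays of Sirt6 overlapped and those of the other 4 did not, nor did those of 50% of all genes. Sirt1 and Sirt7 gave −0.04 (−0.17 to 0.08) and 0.11 (−0.03 to 0.25). Sirt7 was called higher with median scaling (0.28, adjusted p = 0.035) and with slide as a random block (0.14, adjusted p = 0.034). The same held without co-exposed 24-hr replicate 3 (0.18, adjusted p = 0.0083). Its second probe read 2.74, 2.64 and 2.62 with KBrO3 alone and 2.63, 2.65 and 2.72 with BPA, which overlap.

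The calls of Sirt3 and Sirt5 at 24 hr held whichever single array was left out, whereas those of Sirt2, Sirt4 and Sirt6 did not. With normexp background correction only Sirt5 was called. The differences that lost their call were then 0.46 for Sirt3 (adjusted p = 0.055) and 0.37 for Sirt4 (adjusted p = 0.14). Those of Sirt6 and Sirt2 were 0.34 and 0.17 (adjusted p = 0.81 and 0.56). The count of 5 fell to 3 without KBrO3 24-hr replicate 1, to 2 without co-exposed 24-hr replicate 1 and to 3 without co-exposed 24-hr replicate 2. One slide holds 2 arrays of each of these groups, and within it the differences were 0.58 for Sirt5, 0.53 for Sirt3, 0.43 for Sirt4, 0.46 for Sirt6 and 0.24 for Sirt2, each at least as large as over all arrays. With slide as a fixed block all 5 were called, and Sirt7 too (0.17, adjusted p = 0.025). For the 4-hr difference no slide holds both groups, and with slide as a random block Sirt5 alone was called. Likewise no slide is shared between untreated cells and KBrO3 at 24 hr or either co-exposure, nor between the times of either treatment, so slide and group cannot be told apart within any slide in these comparisons. With the random block, the calls lost in them were those of Sirt4 with KBrO3 at 24 hr (adjusted p = 0.052) and of Sirt2 between the times of KBrO3 alone (adjusted p = 0.073).

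The change of this difference from 4 to 24 hr was tested in the same limma fit. It was called for 5 of 7 sirtuins, all toward higher values with BPA at 24 hr, where 55.8% of all genes were called in either direction. Sirt5 changed by 1.19 (0.99 to 1.40, adjusted p = 1.9e-06), Sirt6 by 0.70 (0.36 to 1.04, adjusted p = 0.0028), Sirt3 by 0.54 (0.40 to 0.68, adjusted p = 3.6e-05) and Sirt2 by 0.36 (adjusted p = 0.0018). The 0.38 of Sirt4 (0.05 to 0.71, adjusted p = 0.0498) was lost when any of 11 of the 12 arrays compared was left out. With normexp only Sirt5 was called. The changes that lost their call were then 0.53 for Sirt6 (adjusted p = 0.72) and 0.49 for Sirt3 (adjusted p = 0.16). Those of Sirt4 and Sirt2 were 0.42 and 0.34 (adjusted p = 0.25 and 0.27). Sirt1 and Sirt7 gave −0.04 (−0.21 to 0.14) and 0.10 (−0.09 to 0.29), but on their second probes the change was called toward lower values, by −0.54 for Sirt1 (adjusted p = 0.0094) and −0.30 for Sirt7 (adjusted p = 0.0014). The representative Sirt7 probe was called the other way with median scaling (0.41, adjusted p = 0.025) and without co-exposed 24-hr replicate 3 (0.17, adjusted p = 0.041), so no direction is given for Sirt7.

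**Figure D3:**
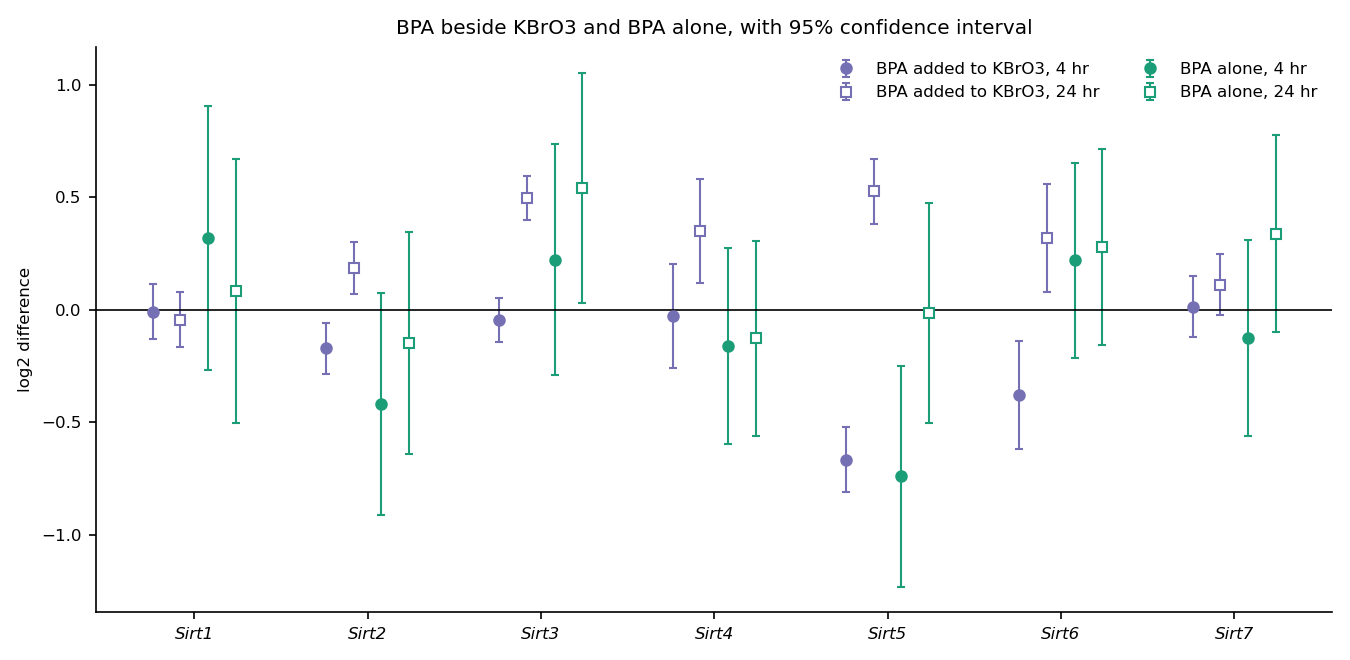
Log2 difference that BPA makes (y axis), with the 95% confidence interval, beside KBrO3 (purple, co-exposed minus KBrO3 alone) and without it (green, BPA alone minus untreated), at 4 hr (filled circles) and 24 hr (open squares). Sirt5 moves from −0.67 to 0.53 between the times, and the intervals are wider for BPA alone.

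BPA alone gave no called sirtuin, either at 4 hr (0 of 7, 4.24% of all 21456 genes called) or at 24 hr (0 of 7, 3.65% called). At an unadjusted p under 0.05 there was 1 at each time, Sirt5 at 4 hr and Sirt3 at 24 hr. The arrays of the second set scatter more: the residual SD (log2) had a median of 0.32 over 27180 shared probes, against 0.11 in the first set, and for Sirt1 it was 0.32 against 0.064.

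Sirt5 read 0.86, 0.96 and 0.62 on the untreated arrays of the second set, 0.07, 0.29 and −0.15 at 4 hr of BPA and 1.08, 0.80 and 0.51 at 24 hr. All 4-hr arrays lay below all untreated arrays, and the 24-hr arrays overlapped them. The log2 difference at 4 hr was −0.74 (−1.23 to −0.25, adjusted p = 0.10), against −0.67 beside KBrO3, and −0.02 at 24 hr (−0.51 to 0.48). On the slide that holds untreated replicate 1 and BPA 4-hr replicates 1 and 3, the difference was −0.90.

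Sirt2 read 1.39, 2.03 and 1.54 untreated and 1.36, 1.04 and 1.30 at 4 hr of BPA, with no overlap (−0.42, −0.91 to 0.07, adjusted p = 0.35). On the slide shared with untreated replicate 1 the difference was only −0.06, and without untreated replicate 2 it was −0.23. Its upstream probe A_52_P656024 read −0.48, 0.02 and 0.29 and then −1.64, −1.32 and −0.29 (−1.03, adjusted p = 0.17), which overlap. Sirt3 read 2.25, 2.14 and 1.63 untreated and 2.73, 2.40 and 2.51 at 24 hr, all higher (0.54, 0.03 to 1.05, adjusted p = 0.25). On the slides that hold an untreated and a 24-hr array, its difference was 0.59 and 0.78. On their representative probes Sirt6 and Sirt7 were also above all untreated arrays at 24 hr (0.28 and 0.34, adjusted p = 0.49 and 0.40). On those slides Sirt6 gave 0.28 and 0.31 and Sirt7 0.14 and 0.58. The second Sirt7 probe, A_52_P138727, read 2.46, 2.41 and 1.99 untreated and 2.24, 2.34 and 2.54 at 24 hr, which overlap. Groups without overlap numbered 2 of 7 at 4 hr and 3 of 7 at 24 hr, beside 26.6% and 22.5% of all genes.

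Sirt1 and Sirt4 overlapped the untreated arrays at both times of BPA alone. Sirt1 read 0.67, 0.37 and 0.03 untreated, 1.00, 0.43 and 0.59 at 4 hr and 0.67, 0.05 and 0.60 at 24 hr, and the 4-hr difference of 0.32 had an interval of −0.27 to 0.91. Sirt4 gave −0.16 (−0.60 to 0.27) at 4 hr and −0.13 (−0.56 to 0.31) at 24 hr. A single fit of all 24 arrays, which pools the spread of both sets, was read on the representative probes. It called Sirt2 and Sirt5 lower at 4 hr and Sirt3 and Sirt7 higher at 24 hr.

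Whether BPA acted differently alone and beside KBrO3 was tested across the sets. At 4 hr only Sirt6 differed, by 0.60 (0.20 to 0.99, adjusted p = 0.033; 19.1% of 18347 genes called): it gave 0.22 with BPA alone and −0.38 beside KBrO3. That call was lost when any of 7 single arrays was left out, without the filter on dim probes and with normexp, which had to use median spot signals in the second set and mean ones in the first. The second Sirt7 probe differed too, by −0.67 (adjusted p = 0.0051), where the representative probe gave −0.14 (adjusted p = 0.57). For Sirt5 the 4-hr difference between the effects was −0.07 (−0.47 to 0.32). At 24 hr none was called (5.43% of genes called), and Sirt5 and Sirt4 passed at an unadjusted p under 0.05. Their values were −0.54 (−0.94 to −0.15, adjusted p = 0.12) and −0.48 (−0.86 to −0.09, adjusted p = 0.16).

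**Figure D4:**
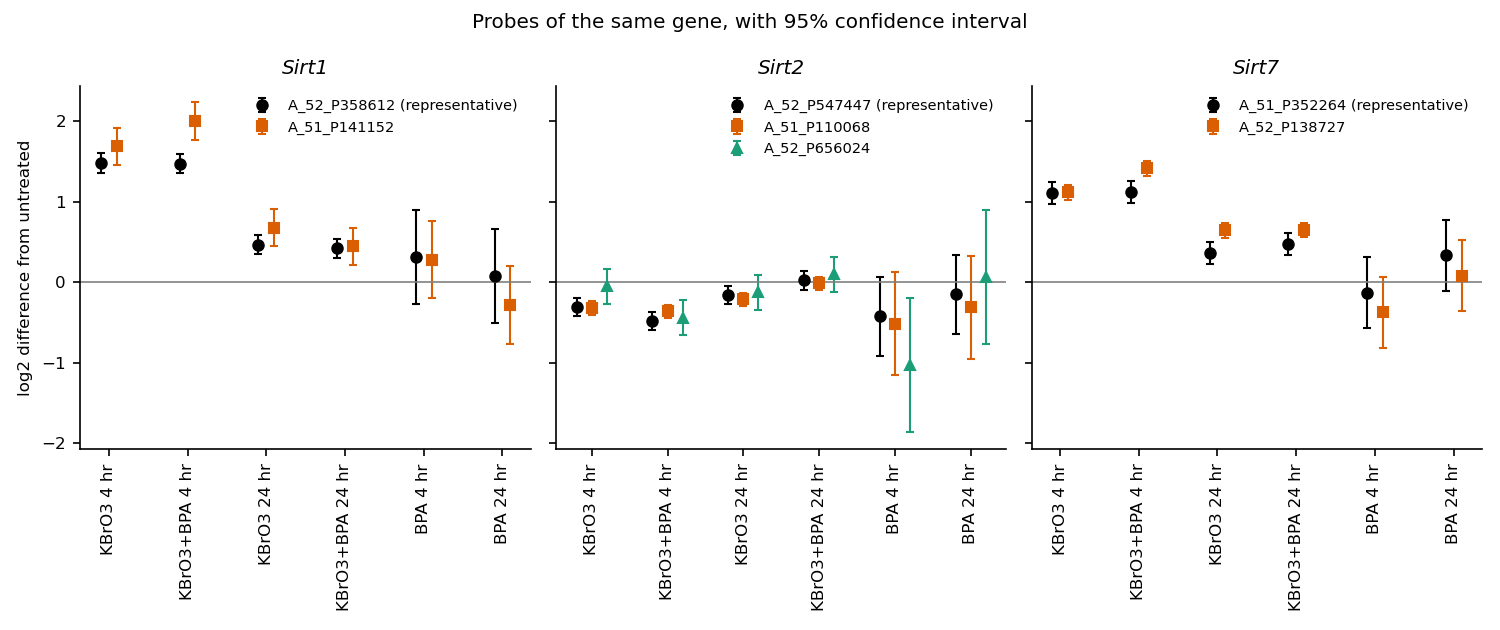
Log2 difference from untreated (y axis) on every probe of Sirt1, Sirt2 and Sirt7, with the 95% confidence interval, for the 6 treatments on the x axis. The Sirt1 and Sirt7 probes agree in sign in both KBrO3 treatments, whereas the Sirt2 probe A_52_P656024 stays near 0 after KBrO3 alone (−0.05 at 4 hr).

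Sirt1 and Sirt7 rose and fell back together, so the sequences at their start sites are shown, as RefSeq gives them on GRCm38.p6. The Sirt1 window is chr10:63338986-63339285 on the minus strand, 250 bases before to 50 after the start, with each E-box (CACGTG) in capitals. The Sirt7 window is the 150 bases at chr11:120624965-120625114 on the minus strand, 100 before to 50 after the start, with each match to CCGGAAG, the core of sites for ETS-family factors, in capitals.
Sirt1: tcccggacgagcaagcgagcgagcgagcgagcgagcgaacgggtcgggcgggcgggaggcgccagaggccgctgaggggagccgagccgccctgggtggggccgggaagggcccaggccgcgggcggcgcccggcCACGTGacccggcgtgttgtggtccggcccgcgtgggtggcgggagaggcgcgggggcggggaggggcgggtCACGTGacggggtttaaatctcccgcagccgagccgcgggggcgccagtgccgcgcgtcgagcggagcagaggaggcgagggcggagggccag
Sirt7: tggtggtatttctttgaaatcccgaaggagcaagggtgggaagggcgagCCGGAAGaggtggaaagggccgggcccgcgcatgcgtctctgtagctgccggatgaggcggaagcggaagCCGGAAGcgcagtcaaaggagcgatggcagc

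Windows of 300 bases were found for all 7 sirtuins, 9 windows in all, and 5 motifs were searched on both strands. CACGTG occurs at 2 positions in Sirt1 and in no other sirtuin window, and 7.15% of all 32851 windows hold it. CCGGAAG occurs at 2 positions in Sirt7 and at 1 each in Sirt3 and Sirt6 (8.86% of windows). The palindromic element of NRF1 occurs once in Sirt6 (0.971%). TGACNNNGC, the core of the antioxidant response element, matched in Sirt1, Sirt3 and Sirt7 (12.4%), in Sirt1 overlapping an E-box and in Sirt7 overlapping a CCGGAAG match. GGGCGG, the GC box, occurs at 7 positions in Sirt1 and in windows of Sirt2, Sirt3, Sirt5, Sirt6 and Sirt7 (35.7%). Sirt1 and Sirt7 thus share the TGACNNNGC and GGGCGG matches. In Sirt3 these lie in separate windows, TGACNNNGC in chr7:140882260-140882559 and GGGCGG in chr7:140881820-140882119, and neither window holds both. Whether the matches bear on the changes in signal was not tested. These matches describe the sequence; binding was not measured.

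Over the 15 arrays of the first set, the sirtuins fell into 2 opposing patterns. Sirt1 and Sirt7 had a Pearson r of 0.980, and Sirt2, Sirt3, Sirt4, Sirt5 and Sirt6 correlated with each other at 0.754 to 0.952 and with Sirt1 at −0.960 to −0.763. These points share arrays, slides and 5 groups, so the values describe these arrays only. Of 18422 genes, those most like Sirt1 were Dnajc5 (0.998), Chd1 (0.996) and Zfp622 (0.995), and those most like Sirt7 were Ier2 (0.995), Taf1c (0.994) and Ccm2 (0.993). Sirt3 was closest to Haghl, Cc2d1b and Pkig (0.995, 0.994 and 0.994) and Sirt4 to Nudt18, BC017158 and Prmt2 (0.994, 0.993 and 0.993). Sirt5 was closest to 1500005A01Rik, 1190017O12Rik and Fbxo3 (0.996, 0.993 and 0.992). Sirt2 was closest to Pik3r2, Arhgef10l and Bckdha (0.984, 0.983 and 0.982), and Sirt6 to Sh3glb2 (0.984), a transcript without a symbol (0.982) and Znhit1 (0.981).

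Lists of genes around the sirtuins are given next; values for 2 treatments are in the order KBrO3 alone, co-exposure, and Nampt, Trp53 at 4 hr and the values of genes at times when they were not among the largest were added for their roles after all values were seen. The counts stand beside the shares of all genes called: at 4 hr 34.5% higher and 36.6% lower with KBrO3 alone and 40.4% and 38.3% in co-exposure, and at 24 hr 29.7% and 36.7%, and 31.5% and 38.8%. Of 8 tested genes known to act on Sirt1, 4 rose and 3 fell at 4 hr after KBrO3 (median log2 difference 0.23, against 0.05 over all genes). Rps19bp1, which encodes an activator of SIRT1, rose by 0.97 and Elavl1, an RNA-binding protein that stabilizes the Sirt1 transcript, by 0.78. Ccar2, an inhibitor of the SIRT1 protein, and Hic1, a repressor of the Sirt1 gene, changed by −1.69 and −1.01. In the 4-hr co-exposure 4 rose and 2 fell, with 1.08 for Rps19bp1 and −1.27 for Ccar2. At 24 hr Hic1 was still lower, by −1.54 with KBrO3 and −1.22 with BPA added, whereas Ccar2 (−0.15 and −0.11) was not called. The 24-hr counts were 4 higher and 1 lower with KBrO3 alone and 4 higher and 3 lower in co-exposure. After BPA alone 0 of 8 were called at either time; for this and the other lists, 4.24% of all genes were called at 4 hr of BPA alone and 3.65% at 24 hr.

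Sirtuins need NAD. Of 12 tested genes of NAD synthesis (16 listed, 14 on the array), 3 rose and 5 fell at 4 hr after KBrO3, and 6 rose and 5 fell in the 4-hr co-exposure, with medians of −0.09 and 0.46. Naprt, which starts the pathway from nicotinic acid, rose by 1.87 and 1.73. Nmnat2, whose enzyme forms NAD from the mononucleotide and ATP, was well above background on no untreated array of the set. It was at least 2.45-fold higher at 4 hr after KBrO3 and at least 4.86-fold higher in the 4-hr co-exposure. Nmrk1, a nicotinamide riboside kinase, changed by −1.26 and −1.35. Nampt, the rate-limiting enzyme of the salvage pathway, gave 0.03 after KBrO3 at 4 hr and rose by 0.57 with co-exposure. At 24 hr, 4 rose and 3 fell after KBrO3 and 5 rose and 2 fell after co-exposure.

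The list named NAD consumption holds enzymes that use up NAD and Nnmt, which does not: it methylates nicotinamide, the product of NAD cleavage. Of 10 tested, 0 rose and 7 fell at 4 hr of KBrO3 (median −0.40), and 1 rose and 5 fell in the co-exposure (median −0.14). Nnmt, counted among those that fell, changed by −1.07 and −1.44 at 4 hr and by −2.02 and −1.14 at 24 hr. Parp1, the main poly(ADP-ribose) polymerase at DNA breaks, gave −0.19 and −0.37 at 4 hr and then rose by 0.89 and 0.73 at 24 hr, and Parp2 rose by 0.52 and 0.88. The counts at 24 hr were 3 higher and 5 lower after KBrO3 and 2 higher and 4 lower after co-exposure. With BPA alone, Parp14, an interferon-inducible member, was the only gene of the list called, at 4 hr (1.46).

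Substrates of nuclear and cytosolic sirtuins moved in both directions: 7 rose and 5 fell of 14 at 4 hr after KBrO3, and 8 rose and 5 fell in the co-exposure. Foxo1, a transcription factor that SIRT1 deacetylates, rose by 1.74 and 1.08, and Trp53, the gene of p53, by 0.75 and 0.34. At 24 hr Trp53 was higher by 0.85 and 1.08, while Tuba1a, an α-tubulin, was lower by −1.32 and −1.56. At that time 5 of 14 were higher and 5 lower with KBrO3 alone, and 5 higher and 6 lower in co-exposure. Of 10 tested substrates of mitochondrial sirtuins, 3 rose and 4 fell after KBrO3 at either time, and 2 rose and 5 fell with co-exposure at either time. Ogdh, a subunit of the 2-oxoglutarate dehydrogenase complex, rose by 0.87 and 0.62 at 4 hr. Mlycd, malonyl-CoA decarboxylase, changed by −0.89 and −0.92 at 4 hr, and Idh2, the mitochondrial NADP-dependent isocitrate dehydrogenase, by −1.02 and −1.41 at 24 hr. Sod2, the manganese superoxide dismutase, was the only substrate called after BPA alone, by 1.51 at 4 hr and 1.13 at 24 hr, and was lower by −1.08 at 24 hr after KBrO3.

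The classical zinc-dependent histone deacetylases, the other deacetylase family, serve as a comparison. Of 11 tested, 10 were called at 4 hr after KBrO3 (71.1% of all genes were called), 1 higher and 9 lower (34.5% and 36.6% of all genes), with a median log2 difference of −0.55, against 2 higher, 5 lower and −0.43 for the sirtuins and 0.05 over all genes. In the 4-hr co-exposure the counts were 1 higher and 9 lower (median −0.88; sirtuins −0.80). Hdac9 changed by −1.59 and −1.63, and Hdac11, which was well above background on no KBrO3 4-hr array, was at least 5.92-fold lower. At 24 hr the counts were 1 higher and 8 lower after KBrO3 and 2 higher and 6 lower after co-exposure. With BPA alone Hdac11 alone was called, at 4 hr (−1.23). BPA added to KBrO3 at 24 hr left 3 of these genes higher and 3 lower, beside 24.9% and 22.8% of all genes, with a median of 0.04 (−0.03 over all genes), where 5 sirtuins were higher and 0 lower, with a median of 0.32. At 4 hr it left 1 of these genes higher and 3 lower (median −0.06) and 0 sirtuins higher and 3 lower (median −0.05). Of all genes 28.8% were then higher and 30.3% lower. No test compares the families.

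**Figure D5:**
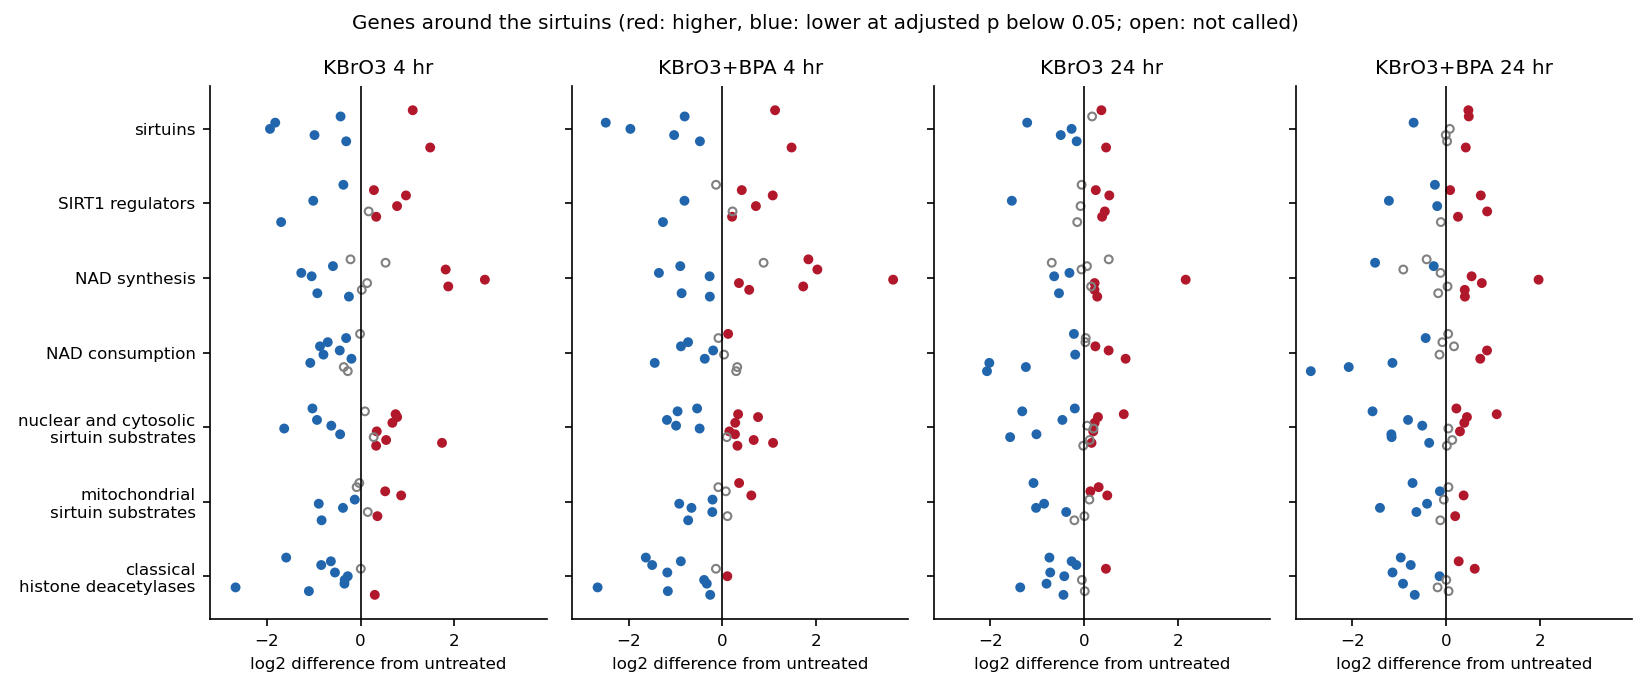
Log2 difference from untreated (x axis) of each tested gene of 7 lists (rows), for KBrO3 and co-exposure at 4 and 24 hr (panels); red and blue points are genes called higher and lower, open points are not called. At 4 hr most histone deacetylases lie left of 0 (9 of 11 lower after KBrO3), and the sirtuins lie on both sides.

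The identity of the cells and the arrays bears on these values as follows. Of 10 fibroblast markers, 9 were well above background on all 24 arrays, and Thy1 on 10 of 15 arrays of the first set. Of 5 markers each of other cell types, 0 epithelial, 1 endothelial (Tek), 2 leukocyte and macrophage (Cd68 and Lyz2) and 2 muscle markers (Acta1 and Mymk) were well above background on all 24 arrays. Pecam1 (endothelium), Ptprc (leukocytes) and Des (muscle) were so on 0 arrays, and the rest on some arrays only. Counts of arrays follow for the first set, then for the second. Muscle markers gave 9 and 9 for Myod1 and 4 and 9 for Myog. Endothelial markers gave 14 and 9 for Kdr, 0 and 8 for Cdh5 and 1 and 8 for Emcn. Csf1r gave 10 and 9 and Adgre1 1 and 6. Epithelial markers gave 11 and 9 for Krt18, 5 and 9 for Krt8, 0 and 8 for Cdh1, 1 and 2 for Epcam and 0 and 1 for Cldn4. The summed linear signal of the fibroblast markers, relative to the 75th percentile, fell from 1815 to 1929 on untreated arrays to 1659 to 1750 at 4 hr and 708 to 796 at 24 hr after KBrO3 and to 1313 to 1347 and 497 to 578 after co-exposure. The leukocyte and macrophage markers summed to 0.56 to 0.63 untreated, 1.05 to 1.11 and 0.39 to 0.43 after KBrO3 and 0.85 to 0.86 and 0.50 to 0.57 after co-exposure. Muscle markers summed to 0.67 to 0.88 untreated, 0.78 to 0.96 on the 4-hr and 0.18 to 0.48 on the 24-hr arrays with KBrO3. Over the whole set, epithelial markers summed to 0.060 to 0.12 and endothelial markers to 0.093 to 0.24. In the second set the fibroblast markers ranged from 703 to 809 untreated, 686 to 815 at 4 hr and 574 to 685 at 24 hr of BPA. In the same order, its leukocyte and macrophage markers gave 0.54 to 0.77, 0.44 to 0.60 and 0.29 to 0.36. Its muscle markers gave 0.71 to 0.95, 0.86 to 1.10 and 0.63 to 0.72. Epithelial markers there gave 0.088 to 0.49, 0.11 to 0.13 and 0.062 to 0.081. Endothelial markers there gave 0.068 to 0.15, 0.093 to 0.13 and 0.099 to 0.12. These sums hide opposite movements: of 3 leukocyte and macrophage markers tested, 1 was called higher and 1 lower at 24 hr in both KBrO3 treatments (median absolute log2 difference 1.16 with KBrO3 alone and 1.87 in co-exposure). Over the first set Cd68 read up to −0.80, with a mean of −3.08 untreated, and Lyz2 read down to −3.93, with a mean of −1.21 untreated. The part of these shifts in the sirtuin values was not tested. Fewer cells and less RNA per cell cannot be told apart in such bulk samples. Spots well above background made up 57.7% to 68.1% of an array in the first set and 76.4% to 79.4% in the second. The Xrcc6 probe was well above background on all 24 arrays and near the 75th percentile of each, at −0.60 to 0.73 (normalized log2 signal) over all arrays and at 0.023, 0.058 and 0.21 on the untreated arrays of the first set. Where this probe lies relative to the deleted part is not given in the sources used here, so it does not check the genotype.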

How the data were processed

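Messenger RNA of 24 samples was measured on 1-color Agilent mouse arrays. The authors scanned the arrays and extracted probe intensities with Agilent Feature Extraction (9.5.3.1 in the headers of the first set and 12.0.0.7 in those of the second; the submitters' notes name 12.0). These intensities were deposited as scanner tables, already corrected for background by that software, and the deposited series table holds the same signals: all 1080432 values compared were equal. No comparison by the authors was used.

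Control spots and outlier spots were left out, spots of a probe were averaged, and log2 of the processed signal minus the 75th percentile of the array was taken. Probes were tested in a set where some group had all its arrays well above background. limma 3.58.1 in R 4.3.3 (lmFit and eBayes, two-sided) was fitted to each set with group as the only term, and p-values were adjusted by Benjamini-Hochberg over all probes tested. The cross-set test of the BPA effect used all probes tested in both sets. A gene was represented by its brightest probe. The fit was tested on simulated data. The precision is limited by 3 arrays a group.

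Named were all 7 sirtuins and, from each list, up to 2 called genes with the largest rise and fall in a comparison. The members and lists were chosen with earlier results of these data known. Arrays of the first set lie on 5 slides and those of the second on 5, taken from the array identifiers in the headers. Replicate numbers did not pair the arrays: same-numbered arrays of different groups had mean correlations of deviations of −0.03 (30 pairs, −0.21 to 0.11) and 0.0020 (9 pairs, −0.38 to 0.65). Alternatives covered scaling, background correction, dim-probe filters, call rule, probe choice, arrays in the fit, slide, weights and each array left out. Promoter sequences and probe names came from RefSeq tables and array annotation.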

Additional observations from a re-analysis of the deposited data

Results flagged for a closer look

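Of 42 tested differences between times or between settings of BPA, 20 passed an adjusted p of 0.05 in limma, and these are given as values without explanation. With KBrO3 alone, the 24-hr minus 4-hr difference was −1.02 for Sirt1, 0.15 for Sirt2, 0.48 for Sirt3, 1.66 for Sirt4, 0.61 for Sirt5, 0.60 for Sirt6 and −0.74 for Sirt7 (log2), where 75.6% of all genes were called. With co-exposure it was −1.05 for Sirt1, 0.50 for Sirt2, 1.03 for Sirt3, 2.04 for Sirt4, 1.80 for Sirt5, 1.29 for Sirt6 and −0.65 for Sirt7, where 82.6% of all genes were called. In both treatments Sirt1 and Sirt7 were lower and the other 5 higher at 24 hr. The first Sirt2 value was not called with normexp, a random slide block, all 24 arrays in 1 fit or the mean over probes, or when any of 3 single arrays was left out (KBrO3 4-hr replicate 1 or 2, KBrO3 24-hr replicate 3), the Sirt7 value in co-exposure was not called with median scaling, and the Sirt6 values fell to 0.011 and 0.54 with normexp, neither called. With BPA alone no sirtuin was called between the times, and 2 passed at an unadjusted p under 0.05 (3.98% of genes called).

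The difference that BPA made beside KBrO3 changed from 4 to 24 hr by 0.36 for Sirt2, 0.54 for Sirt3, 0.38 for Sirt4, 1.19 for Sirt5 and 0.70 for Sirt6. The difference between BPA alone and BPA beside KBrO3 at 4 hr was 0.60 for Sirt6. That test sets arrays of the first set against arrays of the second.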

How the results depend on the processing

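For the 14 comparisons, 272 counts of called sirtuins were recomputed under the alternatives, and 242 stayed within 1.5 times. Of 1904 single differences 1726 kept direction and call, 105 were lost, 19 gained, 5 reversed, and 49 that were called in neither setting changed sign. These totals include the deposited series table, which holds the same signals and so could not change a result. The cause of the changes below was not tested. With the Bonferroni rule the counts were 1 for KBrO3 alone at 24 hr, 1 for co-exposure at 24 hr, 3 for KBrO3 alone between times (27.5% of all genes), and 0 for BPA added to KBrO3 at 4 hr (5.49%) and 0 at 24 hr (6.67%). With normexp background correction, BPA added to KBrO3 gave 1 at 4 hr, 1 at 24 hr and 1 for its change with time, and 0 for the cross-set test at 4 hr, which was also 0 with no filter on dim probes. Reversed under normexp were Sirt2 (0.042) and Sirt6 (−0.96) with KBrO3 at 24 hr and Sirt6 (−0.62) in co-exposure at 24 hr. Median scaling gave 7 called in co-exposure at 24 hr and reversed Sirt3 there (0.32). The mean over probes gave 5 for BPA added at 4 hr and reversed Sirt1 there (0.15). A random slide block gave 1 at 4 hr. At 24 hr BPA added gave 3 with only the 6 arrays compared and 2 with all 24 arrays in 1 fit, and that fit gave 2 for BPA alone at 4 hr, 2 at 24 hr and 2 between times.

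Leaving out 1 array gave 2 to 6 called for BPA added at 24 hr, 0 to 1 for the cross-set test at 4 hr, and 0 to 1 for it at 24 hr, with 1 without BPA 24-hr replicate 1. The 0 reported for the cross-set test at 24 hr became 1 with a replicate block (Sirt5, −0.54, adjusted p = 0.0488), although the numbers share no more than a label. The block changed no other call among 98 differences. Error weights moved no count of called sirtuins by more than 1.5 times. The deposited series table could not move any, because it holds the same signals. Leaving out arrays and the block in the tests of change with time and across sets were added after the data were seen. The scatter of the second set limits what BPA alone could show.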
